A study of Rattus norvegicus with 6 samples.

Results

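The hypoxia-inducible factor (HIF) pathway was examined in the rat kidney tubule epithelial line NRK-52E, with and without an overexpressed intracellular domain of Notch1 (NICD1). The set comprised 33 listed genes, namely the HIF subunits, the oxygen sensors with the degradation adaptor, and HIF targets outside glycolysis. A gene was measured where a probe set of the array carried its symbol alone, which held for 32 of the 33 among 18166 genes in all. The probe set of Bnip3 is shared with a pseudogene, so Bnip3 is not analysed here. Total RNA was hybridised to 3 arrays of control cells and 3 arrays of NICD1 cells, and NICD1 was expressed from pINDUCER21, a lentiviral vector with a doxycycline-inducible promoter. The NICD1 group carried that construct; the construct of the control cells, any inducer, the oxygen level of the cultures and the clonality of the lines are not stated in the labels.

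HIF is a heterodimer of an oxygen-regulated alpha subunit, Hif1a or Epas1, and a constitutive partner, Arnt. In oxygen the prolyl hydroxylases Egln1, Egln2 and Egln3 hydroxylate the alpha subunit, the Vhl protein then directs it to degradation, and the asparagine hydroxylase Hif1an blocks its transactivation domain. This control acts mainly on the protein, so transcript levels of the alpha subunits do not report HIF activity. When the alpha subunit persists it binds hypoxia response elements and induces genes for angiogenesis, acid export, collagen maturation, mitophagy and glycolysis, and some of its sensors as feedback. In the kidney, renal tubule cells mainly carry Hif1a, while Epas1 is known from interstitial and endothelial cells.

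Array medians of linear intensity lay between 57.5 and 60.1, and levels below are log2 RMA intensities. Notch1 was 8.66, 8.39 and 8.51 on the control arrays and 9.15, 9.12 and 9.26 on the NICD1 arrays, and whether its probes read the introduced domain could not be established from the annotation. Of 10 measured tubule epithelial markers, 5 lay below a background of 5.67 in both groups, Cdh1 and Epcam among them, and of 10 proximal tubule markers 6 did, while Krt8, Tjp1 and Ocln were above it. Markers of the line's own epithelium moved in both directions, and by more than those of other cell types for Dab2 and Krt8. The endocytic adaptor Dab2 fell by 2.34, from 9.05 to 6.71, the keratin Krt8 rose by 1.08, the tight junction gene Tjp1 fell by 0.26, and the peptidase gene Anpep, with both groups below background, differed by -0.26. The background is the 95th percentile of chemosensory receptor genes. Of 5 leukocyte markers Cd68 rose by 0.27, of 4 endothelial markers Tek fell by 0.57, and of 8 fibroblast and pericyte markers Col1a1 rose by 0.90. The calls of Cd68 and Tjp1 ended without any array except control replicate 1. The mean level of the lists of other cell types ran from 6.16 to 6.22 in control and 6.24 to 6.34 in NICD1 cells for leukocytes, from 5.80 to 5.82 and 5.64 to 5.67 for endothelium, and from 5.60 to 5.72 and 5.78 to 5.80 for fibroblasts and pericytes. Ptprc, Cdh5 and Pdgfra, defining genes of these types, lay below background in both groups, while 2 of 5, 1 of 4 and 4 of 8 markers lay above it in at least 1 group. Those above it were Cd14 and Cd68, Tek, and Pdgfrb, Col1a1, Rgs5 and Cspg4. Cd14 was far above it, at 11.19 in control and 11.32 in NICD1 cells, and Pdgfrb was at 7.89 and 7.66. Neither passed the test, and for both the groups did not overlap. The part of such cells, or of these epithelial changes, in the differences below was not tested.

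Most of the HIF targets rose in NICD1 cells, and of the 9 subunits and sensors 1 rose and 1 fell. NICD1 arrays lay below every control array for 4 of these 9, and above for 1. Of the 32 members, 16 rose and 2 fell (limma, adjusted p under 0.05 by Benjamini-Hochberg across all genes). Among all genes 7.45% rose and 7.22% fell, 14.7% in all. The rises were those of 15 of 23 targets and 1 of 9 subunits and sensors, and the falls those of Arnt2 and Car12. Of all genes 35.8% lay below background in both groups, against 1 of the 32 members. Without the dimmest 30% of genes, 1610 of 12716 rose and 1606 fell, against 17 and 4 of 31 members. The members were chosen with earlier results of these data known, so their shares are descriptions. The median log2 difference, NICD1 minus control, was 0.46 over the 23 targets and -0.06 over the 9 subunits and sensors, beside 0.0073 over all genes. NICD1 arrays lay above every control array for 18 members, against 17.0% of all genes, and below every control array for 5, against 15.7%. The mean level of the 23 targets was 9.49, 9.48 and 9.46 on the control arrays and 9.89, 9.85 and 9.84 on the NICD1 arrays. In these bulk samples more RNA per cell and more cells of a type cannot be told apart.

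**Figure D1:**
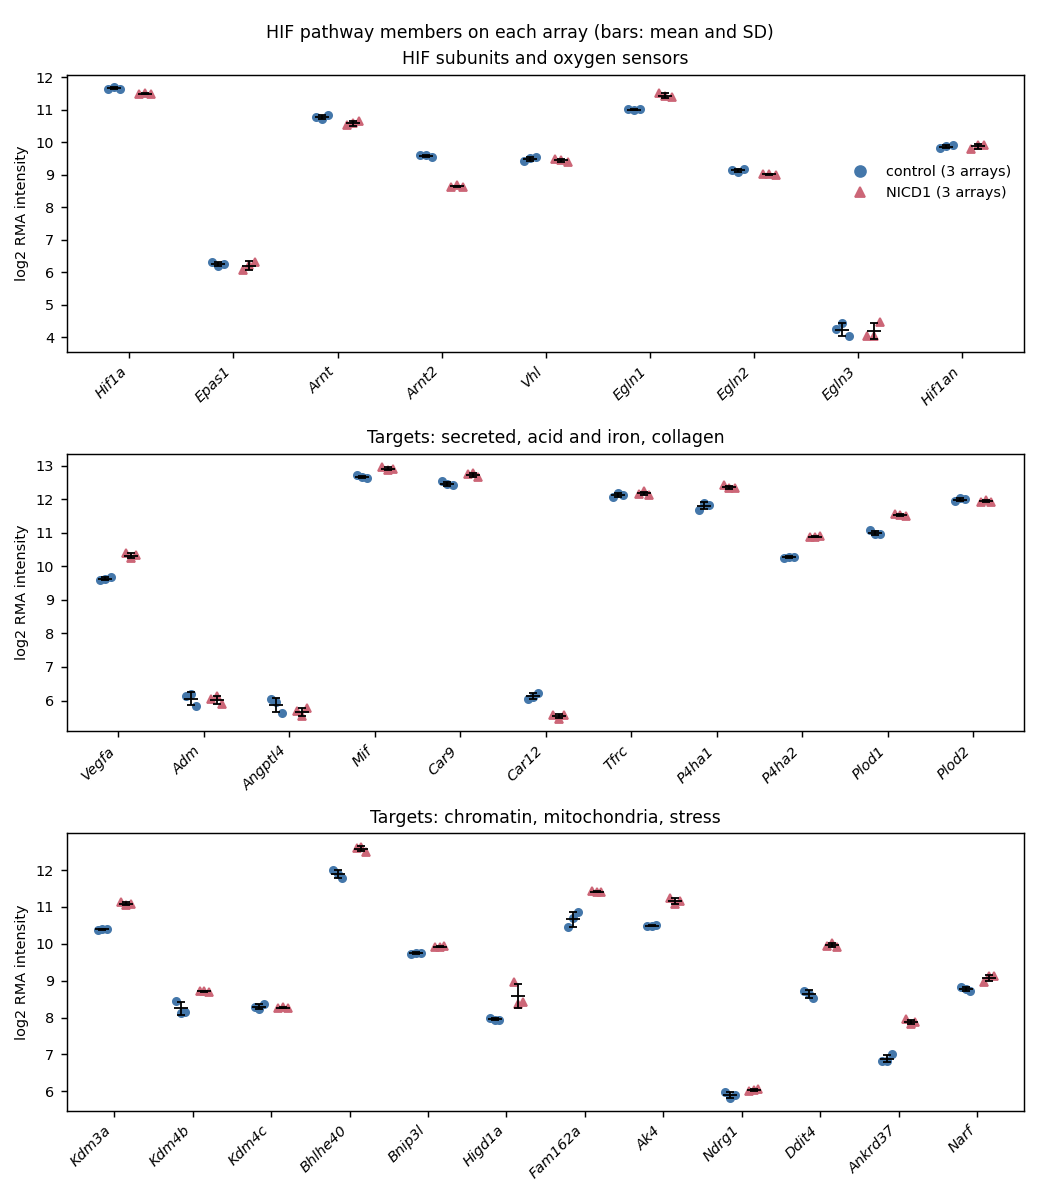
Log2 RMA intensity (vertical axis) of the 32 measured members on each of 3 control arrays (circles) and 3 NICD1 arrays (triangles), with bars for the mean and SD. Ddit4, Ankrd37, Vegfa and the collagen hydroxylases P4ha1, P4ha2 and Plod1 lie higher on every NICD1 array, Arnt2 and Car12 lie lower, and levels of different genes are not comparable.

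The largest rises were those of Ddit4, Ankrd37 and Fam162a, and the largest fall that of Arnt2. Upstream DNA of these 4 genes is shown because the hypoxia response element is the sequence through which HIF acts on its targets. Each line holds the 250 bases before the transcription start from RefSeq (build GRCr8), 5′ to 3′ on the gene's strand. Capitals mark the hypoxia response cores ACGTG and GCGTG and the core TGGGAA of Rbpj, the DNA-binding partner of NICD1, on either strand. The stretches are chr20:28437038-28437287 (minus strand) for Ddit4, chr16:53001257-53001506 (plus) for Ankrd37, chr11:78186051-78186300 (plus) for Fam162a and chr1:147801884-147802133 (minus) for Arnt2.
Ddit4: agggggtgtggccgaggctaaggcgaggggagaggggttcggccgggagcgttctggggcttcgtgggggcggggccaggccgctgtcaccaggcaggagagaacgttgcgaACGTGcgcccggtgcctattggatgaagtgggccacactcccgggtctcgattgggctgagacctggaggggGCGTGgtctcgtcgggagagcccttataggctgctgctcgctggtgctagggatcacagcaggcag
Ankrd37: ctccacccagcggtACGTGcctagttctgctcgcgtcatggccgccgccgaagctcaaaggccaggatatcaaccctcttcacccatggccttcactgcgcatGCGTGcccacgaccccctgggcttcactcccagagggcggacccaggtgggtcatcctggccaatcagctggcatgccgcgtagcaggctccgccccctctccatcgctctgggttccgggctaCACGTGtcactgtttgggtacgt
Fam162a: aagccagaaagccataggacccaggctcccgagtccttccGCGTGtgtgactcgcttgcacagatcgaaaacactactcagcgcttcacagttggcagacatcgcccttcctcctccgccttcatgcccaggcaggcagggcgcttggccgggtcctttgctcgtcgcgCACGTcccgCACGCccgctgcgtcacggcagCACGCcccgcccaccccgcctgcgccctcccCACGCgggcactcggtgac
Arnt2: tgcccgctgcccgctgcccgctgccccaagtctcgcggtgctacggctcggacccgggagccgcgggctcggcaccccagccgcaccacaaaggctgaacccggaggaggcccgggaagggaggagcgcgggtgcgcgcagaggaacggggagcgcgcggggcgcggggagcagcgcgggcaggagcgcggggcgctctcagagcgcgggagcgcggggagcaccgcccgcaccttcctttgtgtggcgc
The Ddit4 stretch held 1 ACGTG and 1 GCGTG. The Ankrd37 stretch held 3 matches to ACGTG and 1 to GCGTG; its palindrome CACGTG counts on both strands and lies closest to the start, beginning 23 bases before it. The Fam162a stretch held 1 ACGTG and 4 GCGTG. The Arnt2 stretch held none of the 3 motifs, which says only that these letters are not in this window. The 250 bases before the start of Car12, the other member that fell, also held none. With the 50 bases after its start added, Car12 held 2 matches to ACGTG and 2 to GCGTG.

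Over the members, windows of 300 bases (250 before to 50 after the start) were found for 30 of the 32, 32 windows in all, since Vegfa and Kdm3a each have 2. Overlapping matches were counted separately. ACGTG was present in 11 of 18 windows of members that rose (61.1%) and in 6 of 14 windows of the others (42.9%), beside 21.4% of the 16050 promoters of genes tested and 19.3% of all 33469 promoters. GCGTG was present in 12 of 18 (66.7%) and 5 of 14 (35.7%), beside 38.6% of promoters of genes tested and 29.7% of all. TGGGAA was present in 2 of 18 (11.1%) and 5 of 14 (35.7%), beside 24.0% and 25.7%. Base composition differed between these sets, with a median GC content of 66.7% in windows of members that rose, 61.5% in the other members, 57.0% in promoters of genes tested and 51.7% in all promoters, and the 1226 windows of all genes that rose held ACGTG in 23.2% and GCGTG in 46.5% at 61.3% GC. These shares are descriptions, and both cores contain CpG. Most members were listed as HIF targets, so shares above those of all promoters may come from the list itself, which was not tested. The windows of Vegfa held neither hypoxia core. The other members mix targets with subunits and sensors. Of their targets, Kdm4c held 4 matches to ACGTG and 2 to GCGTG, Plod2 2 and 2, and Tfrc 1 and 1. Car12, which fell, held 2 and 2, Angptl4 held 1 ACGTG, and Adm held neither. Of their subunits and sensors, Hif1a held 3 matches to ACGTG and Arnt 1 to GCGTG, and the rest held neither. The lower shares of the other members therefore do not describe targets that did not rise.

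**Figure D2:**
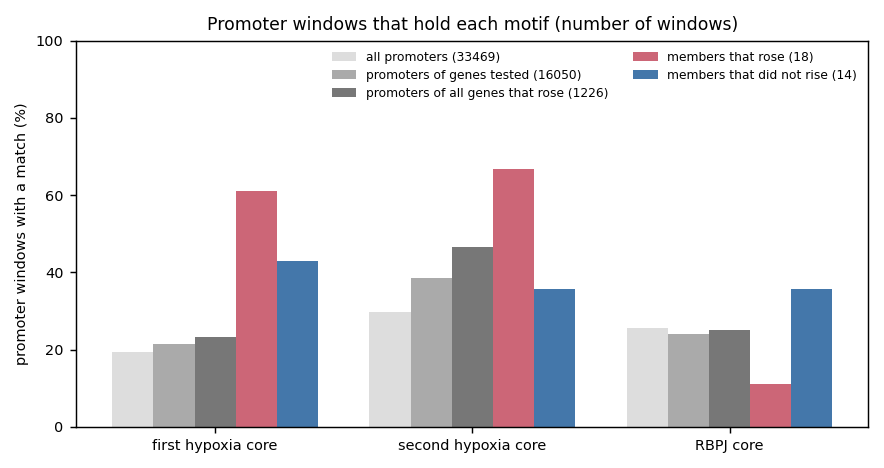
Share of promoter windows (percent, vertical axis) that hold ACGTG (first hypoxia core), GCGTG (second hypoxia core) and TGGGAA (Rbpj core), for all promoters, genes tested, all genes that rose, members that rose and the other members, with the number of windows in the legend. The hypoxia cores were present in 61.1% and 66.7% of windows of members that rose, and in 42.9% and 35.7% of the others, which include subunits and sensors. In promoters of genes tested the shares were 21.4% and 38.6%, at a lower median GC content (57.0% against 66.7% in members that rose).

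None of the 4 HIF subunits rose (limma, 0 upward at an unadjusted p under 0.05 and 3 downward). Among all 18166 genes 2516 were upward and 2345 downward at that p, so 0 rises among 4 genes says little. Hif1a, the alpha subunit of tubule cells, was 11.64, 11.69 and 11.63 in control and 11.49, 11.51 and 11.48 in NICD1 cells. The NICD1 arrays lay lower without overlap, and the difference of -0.16 (SE 0.049, 95% interval -0.28 to -0.04) missed the threshold (adjusted p = 0.0792). Its partner Arnt was 10.77, 10.72 and 10.84 against 10.51, 10.58 and 10.65, a difference of -0.20 (SE 0.062) with adjusted p = 0.0853. Both passed downward with an intensity trend, without the dimmest genes and with a pseudocount of 16, which took the changed subunits and sensors from 2 to 4 in each. The other alpha subunit, Epas1, overlapped between groups, at 6.25 ± 0.06 and 6.20 ± 0.13 (SD, n = 3 each), with a 95% interval of the difference from -0.24 to 0.13.

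Arnt2, an Arnt paralogue best known from neural tissue and kidney, was 9.59, 9.59 and 9.54 on the control arrays and 8.62, 8.67 and 8.63 on the NICD1 arrays. The groups were far apart relative to their spread, and Arnt2 fell by 0.94 on the log2 scale (SE 0.050, 95% interval -1.06 to -0.82; limma adjusted p = 3.86e-05). It ranked 132 among all 18166 genes by size of fall. The log2 ratio of Arnt to Arnt2 within an array moved from 1.12 to 1.30 in control to 1.89 to 2.02 in NICD1 cells, a change of 0.74. The exact two-sided permutation p of that change was 0.1, the smallest that 3 arrays against 3 can give, and 0.18 adjusted over 9 pairs of related members. That limit holds for every ratio below, and the pairs were chosen after their values were seen.

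Among the 5 sensors and degradation genes, Egln1 rose and the others did not pass. Egln1 encodes PHD2, the main HIF prolyl hydroxylase in normal oxygen and itself a HIF target. It was 11.00, 10.99 and 11.01 in control and 11.50, 11.41 and 11.38 in NICD1 cells, higher on every NICD1 array by more than the spread of either group. The rise was 0.43 (SE 0.054), 1.35-fold (limma adjusted p = 0.00201). Egln2 was 9.16, 9.08 and 9.17 against 9.01, 9.01 and 9.00, slightly lower without overlap, and its difference of -0.13 (SE 0.051) did not pass (adjusted p = 0.158). The ratio of Egln1 to Egln2 rose on every NICD1 array, by 0.56 (exact permutation p = 0.1, adjusted 0.18).

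Egln3, the hydroxylase that is most strongly hypoxia-inducible in many cells, lay below background on every array, from 4.03 to 4.42 in control and 4.03 to 4.46 in NICD1 cells. No change of Egln3 can be read at that level. The ubiquitin ligase adaptor Vhl was 9.48 ± 0.07 in control and 9.44 ± 0.04 in NICD1 cells (SD, n = 3 each), with an interval of the difference from -0.18 to 0.09. The asparagine hydroxylase Hif1an was 9.86 ± 0.05 and 9.87 ± 0.07, with an interval from -0.13 to 0.16. For both genes the groups overlapped.

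**Figure D3:**
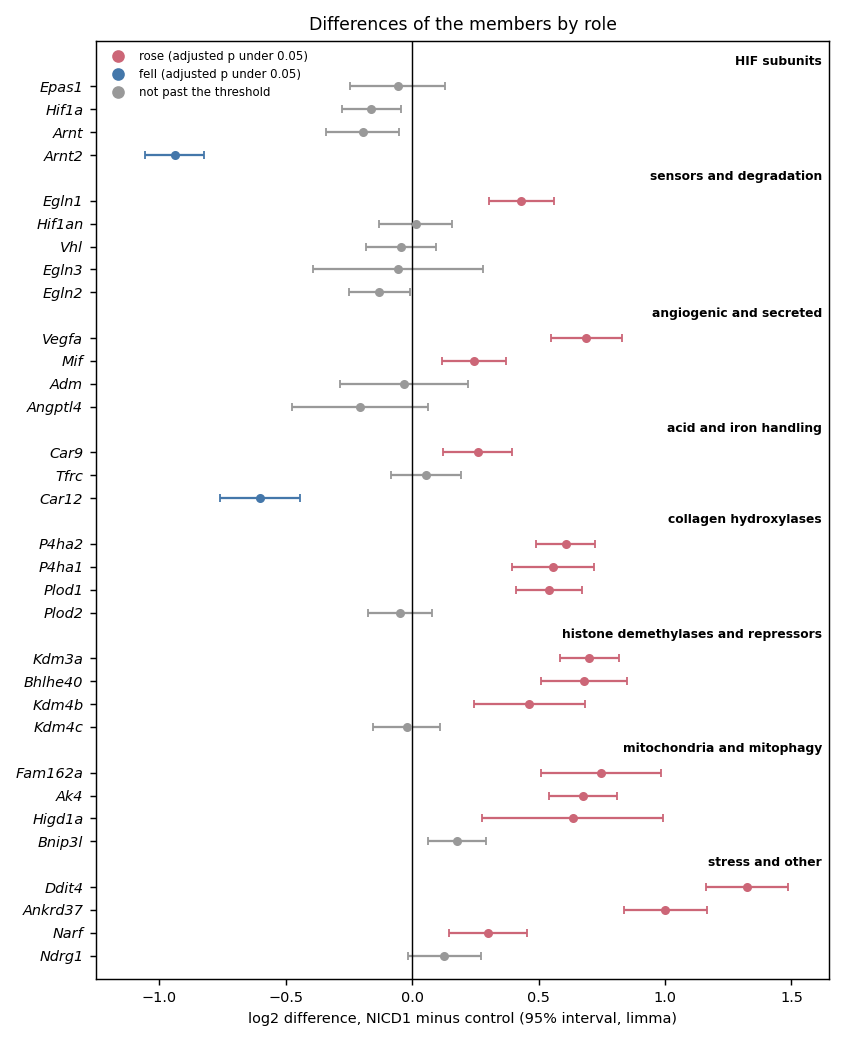
Log2 difference, NICD1 minus control (horizontal axis), of each of the 32 members with its 95% interval from limma, grouped by role; red points rose, blue points fell and grey points did not pass the threshold. Subunits and sensors other than Arnt2 and Egln1 lie within 0.20 of 0, and most targets lie to the right, up to 1.32 for Ddit4.

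Of the 4 secreted factors, Vegfa and Mif rose, and Adm and Angptl4 did not pass. Vegfa, the main angiogenic growth factor, was 9.60, 9.62 and 9.68 in control and 10.39, 10.24 and 10.34 in NICD1 cells. Every NICD1 array exceeded every control array, and Vegfa rose by 0.69 (SE 0.059), 1.61-fold (limma adjusted p = 0.000323). Mif, a cytokine-like tautomerase, was 12.72, 12.66 and 12.65 against 12.98, 12.88 and 12.90. It rose by 0.24 (SE 0.054; limma adjusted p = 0.0246), but this call was lost without any array except control replicate 1 and after a second quantile normalisation. The rat annotation lists several Mif pseudogenes and Mif-like genes, so its signal could be shared with them.

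Adm, a vasodilator peptide, was 6.06 ± 0.19 in control and 6.02 ± 0.12 in NICD1 cells (SD, n = 3 each), and its interval ran from -0.28 to 0.22. Angptl4, a lipoprotein lipase inhibitor, was 6.04, 5.94 and 5.64 against 5.68, 5.54 and 5.78, and the groups overlapped. Its difference of -0.21 had an adjusted p = 0.317, and its NICD1 mean equalled the background to within 0.01. Both are commonly used hypoxia markers, and both lay close to background here.

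The carbonic anhydrases, which convert carbon dioxide to bicarbonate at the cell surface, differed in direction. Car9, a classical HIF1 target, was 12.53, 12.45 and 12.42 in control and 12.74, 12.77 and 12.67 in NICD1 cells. The groups did not overlap, and Car9 rose by 0.26 (SE 0.058), 1.20-fold (limma adjusted p = 0.0250). That call was lost without control replicate 2 or 3 or NICD1 replicate 1 or 2. Car12 was 6.05, 6.11 and 6.23 against 5.56, 5.46 and 5.57, falling below background in NICD1 cells. It fell (limma adjusted p = 0.00113), with a fitted difference of -0.60 (95% interval -0.76 to -0.44). Since its NICD1 level lies below background, the size of the fall is uncertain. The control mean lay 0.47 above the background of 5.67 on the log2 scale, and less above the alternative background of 5.74. Tfrc, the transferrin receptor that takes up iron, overlapped at 12.13 ± 0.06 and 12.18 ± 0.05 (SD, n = 3 each), with an interval from -0.08 to 0.19.

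Of the collagen hydroxylases, which modify procollagen in the endoplasmic reticulum and, like the sensors, use oxygen and iron, 3 of 4 rose. P4ha1, a catalytic subunit of prolyl 4-hydroxylase, was 11.69, 11.89 and 11.84 in control and 12.41, 12.35 and 12.33 in NICD1 cells. P4ha2, the alternative catalytic subunit, was 10.24, 10.29 and 10.28 against 10.88, 10.87 and 10.90. The lysyl hydroxylase Plod1 was 11.07, 10.96 and 10.97 against 11.58, 11.54 and 11.52. For all 3 genes the groups lay apart, with rises of 0.56 (SE 0.068), 0.61 (SE 0.049) and 0.54 (SE 0.056), and limma adjusted p-values of 0.00177, 0.000235 and 0.000759.

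Plod2, the lysyl hydroxylase of collagen telopeptides, did not pass, although it is a known HIF target. It was 11.94, 12.04 and 12.00 in control and 11.93, 11.98 and 11.92 in NICD1 cells. The groups overlapped, and the interval of the difference ran from -0.17 to 0.08. The ratio of Plod1 to Plod2 was higher on every NICD1 array, by 0.59 (exact permutation p = 0.1, adjusted 0.18). The ratio of P4ha1 to P4ha2 overlapped between groups, with a change of -0.05 (SE 0.055, exact permutation p = 0.4).

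Among the chromatin and transcription genes, 3 of 4 rose. Kdm3a, a demethylase of histone H3 lysine and an oxygen-dependent enzyme like the sensors, was 10.37, 10.40 and 10.40 in control and 11.13, 11.07 and 11.08 in NICD1 cells. It rose by 0.70 (SE 0.050), 1.63-fold (limma adjusted p = 0.000136). Bhlhe40, a helix-loop-helix repressor induced by hypoxia, was 12.01, 11.89 and 11.80 against 12.60, 12.64 and 12.50. Its rise of 0.68 (SE 0.072) also exceeded the spread of both groups (adjusted p = 0.000892).

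Of the related demethylases Kdm4b and Kdm4c, Kdm4b passed the test. Kdm4b was 8.46, 8.14 and 8.14 in control, where replicate 1 stood above the others, and 8.72, 8.71 and 8.69 in NICD1 cells. It rose by 0.46 (SE 0.093; limma adjusted p = 0.0161), and the call was lost without control replicate 2 or 3 or NICD1 replicate 1 or 2. Kdm4c was 8.29 ± 0.07 and 8.27 ± 0.02 (SD, n = 3 each), with overlapping groups and an interval from -0.15 to 0.11. The ratio of Kdm4b to Kdm4c was higher on every NICD1 array, by 0.48 (exact permutation p = 0.1, adjusted 0.18).

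The mitochondrial targets had 3 rises among 4 measured genes. Fam162a, a mitochondrial protein linked to hypoxic cell death, was 10.46, 10.69 and 10.86 in control and 11.43, 11.41 and 11.41 in NICD1 cells. The control arrays were spread and the NICD1 arrays close together, and it rose by 0.75 (SE 0.100), 1.68-fold (limma adjusted p = 0.00271). Ak4, an adenylate kinase of the mitochondrial matrix, was 10.49, 10.48 and 10.51 against 11.24, 11.09 and 11.17. It rose by 0.68 (SE 0.057; adjusted p = 0.000309).

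Higd1a, a regulator of respiratory chain complexes, was 7.98, 7.94 and 7.93 in control and 8.97, 8.38 and 8.41 in NICD1 cells, where replicate 1 stood above the others. It rose by 0.64 (SE 0.152; limma adjusted p = 0.0327), the value was 0.44 without NICD1 replicate 1, and the call ended when any 1 control array was left out. The rat annotation lists a Higd1a-like gene and a Bnip3l pseudogene, with which these signals could be shared. Bnip3l, a mitophagy receptor also known as Nix, was 9.71, 9.75 and 9.76 against 9.91, 9.91 and 9.93. The groups did not overlap, and its difference of 0.18 (SE 0.048) narrowly missed the threshold (adjusted p = 0.0526), passing with an intensity trend, array weights, a pseudocount of 16 and without the dimmest genes.

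The remaining targets included the largest rises. Ddit4, also called REDD1, an inhibitor of mTORC1 that responds to hypoxia and other stresses, was 8.73, 8.65 and 8.54 in control and 9.95, 10.03 and 9.91 in NICD1 cells. It rose by 1.32 (SE 0.069), 2.50-fold (limma adjusted p = 3.52e-05), and ranked 81 among all genes by size of rise. Ankrd37, an ankyrin repeat protein known as a direct HIF1 target, was 6.82, 6.83 and 7.00 against 7.95, 7.83 and 7.88. It rose by 1.00 (SE 0.070), 2.00-fold (adjusted p = 0.000122), and for both genes the groups were separated by several times their spread.

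Narf, a protein that binds prelamin A, was 8.82, 8.78 and 8.71 in control and 8.97, 9.12 and 9.13 in NICD1 cells. It rose by 0.30 (SE 0.065; limma adjusted p = 0.0220), and the call was lost without control replicate 2 or 3 or NICD1 replicate 2 or 3. Ndrg1, a stress-response gene that is strongly hypoxia-inducible in many epithelial cells, was 5.99, 5.81 and 5.91 against 6.02, 6.02 and 6.06. Its groups did not overlap but lay near background, and the difference of 0.13 (interval -0.02 to 0.27) did not pass (adjusted p = 0.245).

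Leaving out any 1 array left 11 to 15 rises and both falls among the 32 members. Calls also became fewer among all genes, 10.1% to 13.7% without 1 array against 14.7% with all 6. Without control replicate 2 or without control replicate 3 there were 11 rises, with Mif, Car9, Narf, Kdm4b and Higd1a lost in each. Of the 18 calls, 12 passed under each of the 17 alternatives tried, and Egln1 was left out only by a minimum log2 difference of 0.5. The 12 were those of Arnt2, Car12, Vegfa, P4ha1, P4ha2, Plod1, Kdm3a, Bhlhe40, Fam162a, Ak4, Ddit4 and Ankrd37. For Car12, passing the minimum difference rests on a fitted value whose NICD1 level lies below background.

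Other genes of the pathway were taken as a list of regulators, a list of glycolytic targets and a list of further targets. Rises numbered 22 and falls 7 among 59 measured genes, and 30 missed the threshold. Those are 37.3% and 11.9%, beside 7.45% that rose and 7.22% that fell among all genes. Of the 59, 9 lay below background in both groups, against 35.8% of all genes. These lists too were chosen with earlier results of these data known, so the shares are descriptions. Among 15 regulators, which include coactivators, subunits of the Vhl complex and Siah ligases, 1 rose and 2 fell, with a median difference of 0.0018. Among 15 glycolytic targets 10 rose and 0 fell, with a median of 0.42. At an unadjusted p under 0.05 (limma) 0 of that list were downward, beside 2345 of all 18166 genes. That list does not hold Pfkm, a glycolytic enzyme placed among the further targets, which fell. Among 30 further targets 11 rose and 6 fell, with a median of 0.13. Cited2 stands in both the first and the last of these lists and is counted once in the total.

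The called genes with the smallest adjusted p in each direction are as follows. Ero1a, the oxidase of disulfide bond formation, was 11.12, 11.23 and 11.10 in control and 12.28, 12.23 and 12.25 in NICD1 cells, and rose by 1.10 (SE 0.057; limma adjusted p = 3.32e-05). The phosphofructokinase Pfkp rose by 1.98, the lipoprotein receptor Vldlr by 1.59, the hexokinase Hk2 by 1.13 and the enolase Eno2 by 1.06. Endothelin-1, Edn1, fell by 2.61, the lysyl oxidase Lox by 0.52, the angiopoietin receptor Tek by 0.57 and the muscle phosphofructokinase Pfkm by 0.27. Cited2, which competes with HIF for coactivators and is itself a target, was 10.21, 10.02 and 10.01 against 9.75, 9.54 and 9.68. It fell by 0.43 (SE 0.081; limma adjusted p = 0.0130), with no overlap between groups.

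Further examples were the lysyl oxidase-like Loxl2, which rose by 1.11 (SE 0.063) where Lox fell, and Igfbp3, an insulin-like growth factor binding protein, which rose by 1.93 (SE 0.159). The histone demethylase Kdm6b rose by 0.82 (SE 0.048), pyruvate dehydrogenase kinase Pdk1 by 0.56 (SE 0.054) and the glucose transporter Slc2a1 by 0.50 (SE 0.054). Of the regulators, the ubiquitin ligase Siah2, which targets Egln3 for degradation, rose by 0.24 (SE 0.058) and the deubiquitinase Usp20 fell by 0.30 (SE 0.075). Both calls ended without any 1 control array and without NICD1 replicate 2, that of Siah2 also without NICD1 replicate 3 and that of Usp20 also without NICD1 replicate 1.

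**Figure D4:**
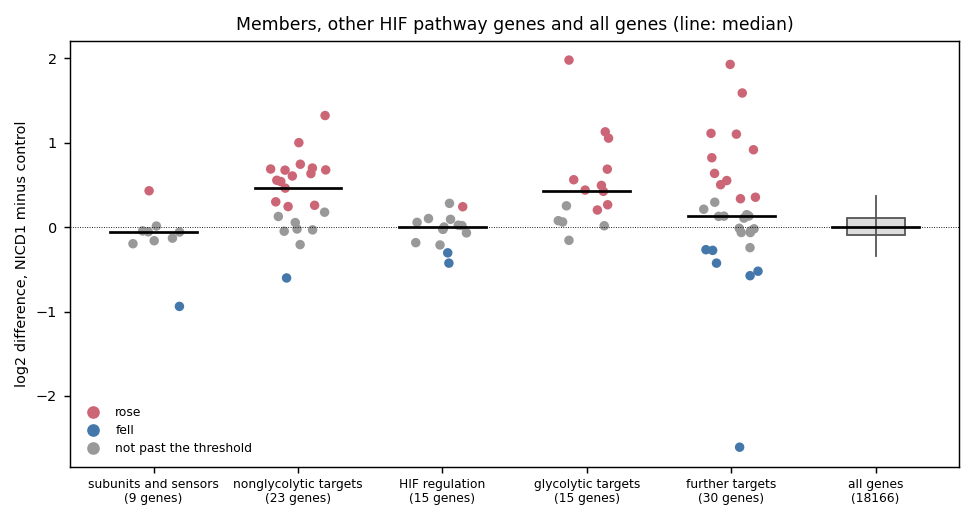
Log2 difference, NICD1 minus control (vertical axis), of members and other HIF pathway genes, 1 point per gene and a line at each list's median; the box for all genes spans the 25th to 75th percentiles and its whiskers the 5th to 95th (-0.35 to 0.37). The medians are 0.46 for nonglycolytic and 0.42 for glycolytic targets, and -0.06 for subunits and sensors.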

How the data were processed

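Groups and replicate numbers came from the sample titles. The deposited values are RMA intensity values on a linear scale, 1 per probe set, and Affymetrix Expression Console is the software named in the submitters' processing notes, without a version. RMA normalises quantiles between arrays, which would remove a general shift of all transcripts. Of 36685 probe sets, 18511 had 1 gene symbol, 575 several and 17599 none in the platform annotation, and 18394 of the 18511 matched the rat annotation (GRCr8), which changed 0 symbols. Log2 was taken without a pseudocount and averaged per symbol. The comparison used limma 3.58.1 in R 4.3.3 (lmFit, eBayes, group as the single term, two-sided), with Benjamini-Hochberg adjustment over 18166 genes. No gene was filtered.

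The background was the 95th percentile of 281 chemosensory receptor genes, 5.67, or 5.74 with the newer olfactory symbols added, an alternative chosen after seeing the data. Changes of ratios between 9 pairs of related members, chosen after their values were seen, were tested by exact permutation of the 6 arrays. Promoter sequences and motifs came from RefSeq windows of GRCr8. The named genes were all members and, of the other pathway genes, the 5 calls with the smallest adjusted p in each direction, with further examples. The members and lists were chosen with earlier results of these data known. The fit was tested on simulated data with independent normal noise, which checks the code and not whether these arrays meet the model. The labels do not say whether replicates were separate cultures, so p-values cover only the spread among these arrays, possibly technical. No batch, slide or date was given, and the number of arrays limits the precision. Figures were drawn with matplotlib 3.10.9.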

Additional observations from a re-analysis of the deposited data

How the results depend on the processing

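Of 17 alternatives, none turned the direction of a called gene among the 56 genes they were run for, while Epas1, Egln3, Hif1an, Adm and Kdm4c, not called, crossed 0 in some. Changed members numbered 13 to 17 without 1 array, 15 with the replicate block, and 17 to 21 with the other normalisations, priors, filters and probe set rules, and 13 under each stricter threshold, against 18. Same-numbered arrays did not deviate together (correlations of their deviations -0.03, -0.01 and -0.01), which does not settle whether they were prepared in pairs. The replicate block lost the calls of Mif, Car9 and Narf. Changed subunits and sensors, 2 in the report, numbered 4 without the dimmest 30% of genes, 4 with an intensity trend and robust prior, 4 with a pseudocount of 16, and 1 with a minimum log2 difference of 0.5. Changed targets numbered 11 to 15 without 1 array, against 16. The other pathway genes changed numbered 17 with that minimum difference and 23 to 27 without 1 array, against 29. All genes changed numbered 1473 at an adjusted p under 0.01, 1007 with the minimum difference and 1830 to 2486 without 1 array, against 2666. The stricter thresholds lower counts by construction; for the rest the cause was not tested. Members below background in at least 1 group numbered 2, or 3 with the newer olfactory symbols, Angptl4 being added. With 3 arrays per group, small differences near background, such as those of Egln3, Adm and Ndrg1, were not resolvable.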
